A study of Dunaliella tertiolecta UTEX 'LB 999' with 2 samples.

Results

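Contigs named for metal ion transporters and a ferric reductase were followed between 2 mRNA libraries of the green alga Dunaliella tertiolecta, taken 8 h and 4 h after a rise in light. The contigs were taken from the authors' lists of transcripts that differed between these libraries. A contig was included if its best hit in Chlamydomonas reinhardtii, another green alga, carried the symbol ZRT3, ZRT5, CAX1, MTP1, MTP2 or FRE1, or if its description named a magnesium transporter or a vacuolar iron transporter. This gave 8 of the 234 listed contigs, which were thus chosen by their fold and p-value in the 8 h to 4 h contrast as well as by name. The description of 1 of them reads magnesium (Mg) transporter 10, so its wording differs slightly from the rule, and 7 contigs follow the rule to the letter.

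Strain UTEX LB-999 was grown in a chemostat, which feeds a culture and drains it at the same rate, in medium with 0.5 M NaCl at 25 °C. The light was 40 µmol photons m-2 s-1 and was raised to 400 µmol photons m-2 s-1 for both samples. RNA was taken 8 h after the shift for 1 library and 4 h after it for the other, and no sample from before the shift was used here. Nothing in the labels says whether both came from the same culture vessel, and there were no replicates, so each value below compares the 8 h library with the 4 h library and has no replicate check. The authors' means are in RPKM, reads scaled to contig length and to the size of the library. The column of means taken as 8 h is the numerator of the authors' ratio, whose contrast reads 8 vs 4, and neither column heading names a time point, so every direction below rests on that reading. The means correspond to 674129 reads at 8 h and 556037 reads at 4 h, and the 8 metal contigs held 239 of them at 8 h and 114 at 4 h.

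Metal ions such as zinc, iron, calcium and magnesium are cofactors that a cell must take up, pass between compartments and keep from building up in the cytosol. ZIP family proteins, to which the ZRT genes belong, carry zinc and related metals into the cytosol. Cation diffusion facilitators, to which the MTP genes belong, carry such metals out of it, into vacuoles and other compartments or out of the cell. Cation exchangers of the CAX family move calcium into vacuoles in exchange for protons. Ferric reductases turn ferric iron into the ferrous form at the cell surface, a step before uptake. In Chlamydomonas, FRE1 is known to be induced by lack of iron and several ZRT genes by lack of zinc.

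In the 8 h library, the ZIP family zinc carriers ZRT3 and ZRT5, the cation exchanger CAX1 and the magnesium transporter stood higher. The cation diffusion facilitators MTP1 and MTP2, the ferric reductase FRE1 and the vacuolar iron transporter stood lower. That is 4 contigs higher and 4 lower, where 57.3% of all 234 listed contigs were higher and 42.7% lower. The lists themselves were made from this contrast, so the direction and size of each difference are a description, and nothing is read from these shares. By metal, the higher list held ZRT3 and ZRT5 for zinc and the calcium and magnesium contigs, and the lower list held MTP1 for zinc and both iron contigs. For MTP1 and the vacuolar iron transporter the counting interval included equal levels.

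ZRT3 was the most abundant metal contig at both times. Its level was 177.1 RPKM at 8 h, from 159 reads, against 58.1 RPKM at 4 h, from 43 reads. All intervals here cover counting error only. They take no account of the choice of contigs by this contrast, which favours intervals that leave out equal levels. The ratio of ZRT3 was 3.05 (95% exact interval 2.17 to 4.38). This was the narrowest interval of the 8, and the 95% Poisson intervals of its levels, 150.6 to 206.8 RPKM at 8 h and 42.0 to 78.2 RPKM at 4 h, did not overlap. Among the 234 listed contigs, ZRT3 ranked 7 by level at 8 h and 17 at 4 h, and 6 by reads over both libraries. The description of its best hit is zinc transporter 5 precursor, with an E value of 8e-57.

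ZRT5, described as zinc transporter 3 precursor, also belongs to the ZIP carriers. Its level was 19.3 RPKM at 8 h, from 19 reads, against 7.39 RPKM at 4 h, from 6 reads. The ratio was 2.61, and its interval of 1.003 to 7.99 only just left out equal levels. ZRT3 stood above ZRT5 by 9.18 times at 8 h and by 7.86 times at 4 h. Summed over both contigs, the level was 196 RPKM at 8 h and 65.4 RPKM at 4 h, and most of each sum was ZRT3.

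MTP1 is the zinc facilitator in plants, where it loads zinc into the vacuole, and the description of this contig names the zinc transporter of Arabidopsis thaliana. Its level was 10.9 RPKM at 8 h, from 5 reads, against 26.5 RPKM at 4 h, from 10 reads. The 8 h level was 2.42-fold lower (interval from 1.32-fold higher to 9.04-fold lower), so a difference was not shown beyond counting error at this depth. At 678 bases it was the shortest of the 8 contigs, and 1 read was worth 2.19 RPKM at 8 h and 2.65 RPKM at 4 h. The summed level of ZRT3 and ZRT5 was 17.9 times the level of MTP1 at 8 h and 2.47 times at 4 h. With ZRT5 alone that quotient was 1.76 at 8 h and 0.278 at 4 h. Both quotients had to be larger at 8 h, since the ZRT contigs came from the higher list and MTP1 from the lower. No interval was computed for them.

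MTP2, described as a cation efflux family protein, belongs to the same family of facilitators, and its description names no metal. Its level was 8.44 RPKM at 8 h, from 8 reads, against 23.02 RPKM at 4 h, from 18 reads. The 8 h level was 2.73-fold lower (1.13 to 7.25), an interval that left out equal levels. MTP1 and MTP2 together summed to 19.4 RPKM at 8 h and 49.5 RPKM at 4 h.

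**Figure D1:**
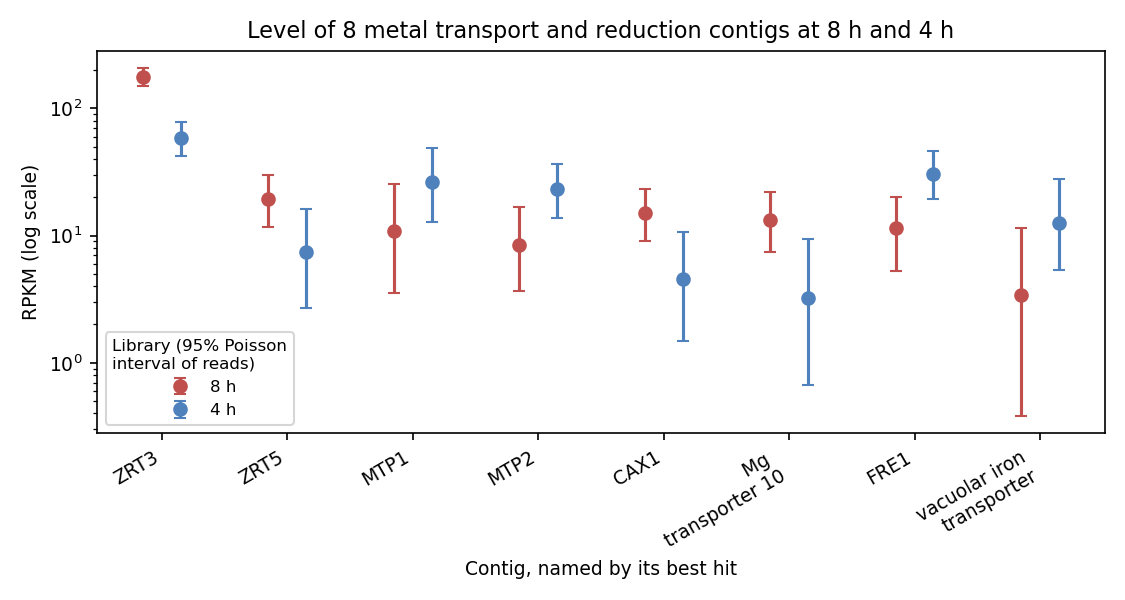
Level in RPKM (log scale) of the 8 metal contigs in the 8 h library (red, left of each pair) and the 4 h library (blue, right of each pair). Points are the authors' means and bars are 95% Poisson intervals of the reads. ZRT3, at 177.1 RPKM at 8 h and 58.1 RPKM at 4 h, lies above the other contigs, and its bars do not overlap.

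CAX1, described as cation exchanger 2, was on the higher list with ZRT3 and ZRT5. Its level was 15.0 RPKM at 8 h, from 20 reads, against 4.53 RPKM at 4 h, from 5 reads. The ratio was 3.30 (1.20 to 11.2), and the best hit was the closest of the 8, with an E value of 2e-121. Among the 4 carriers out of the cytosol, the other 3, MTP1, MTP2 and the vacuolar iron transporter, were on the lower list. Of all listed contigs, 42.7% were lower. Of these 3 carriers, only MTP2 had an interval that left out equal levels. Carriers out of the cytosol thus lay on both lists.

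The magnesium transporter 10 contig had the largest ratio among the metal contigs that stood higher. The name belongs to a family of magnesium channels of the CorA type, and the Arabidopsis protein of that name lies in the chloroplast envelope. Its level was 13.3 RPKM at 8 h, from 15 reads, against 3.23 RPKM at 4 h, from 3 reads. The ratio was 4.12, but its interval ran from 1.17 to 22.2. Its best hit had an E value of 3e-20, and the contig is transcript 2 of 8 assembled at its locus, with an assembly confidence of 0.379, the lowest of the 8. The 8 h and 4 h reads of this contig were whole numbers nonetheless.

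Both iron contigs were on the lower list. FRE1, described as ferric reduction oxidase 2, had 11.4 RPKM at 8 h, from 10.4 reads, against 30.4 RPKM at 4 h, from 22.8 reads. The 8 h level was 2.66-fold lower (1.28 to 6.56). Its reads were fractional, so some may be shared with other contigs, and its level is uncertain to that extent. FRE1 was the most deeply covered of the 4 lower contigs, with 33.2 reads over both libraries.

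The vacuolar iron transporter, of a family that stores iron in the vacuole in plants, had 3.40 RPKM at 8 h, from 2.15 reads, against 12.6 RPKM at 4 h, from 6.55 reads. The 8 h level was 3.70-fold lower, the largest fold among the metal contigs that stood lower. On 8.70 reads in all, its interval ran from 1.24-fold higher to 41.9-fold lower, so the fold was not shown beyond counting error. Its reads were fractional too, and its best hit was the weakest of the 8, with an E value of 6e-13. The 2 iron contigs together summed to 14.8 RPKM at 8 h and 43.0 RPKM at 4 h.

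**Figure D2:**
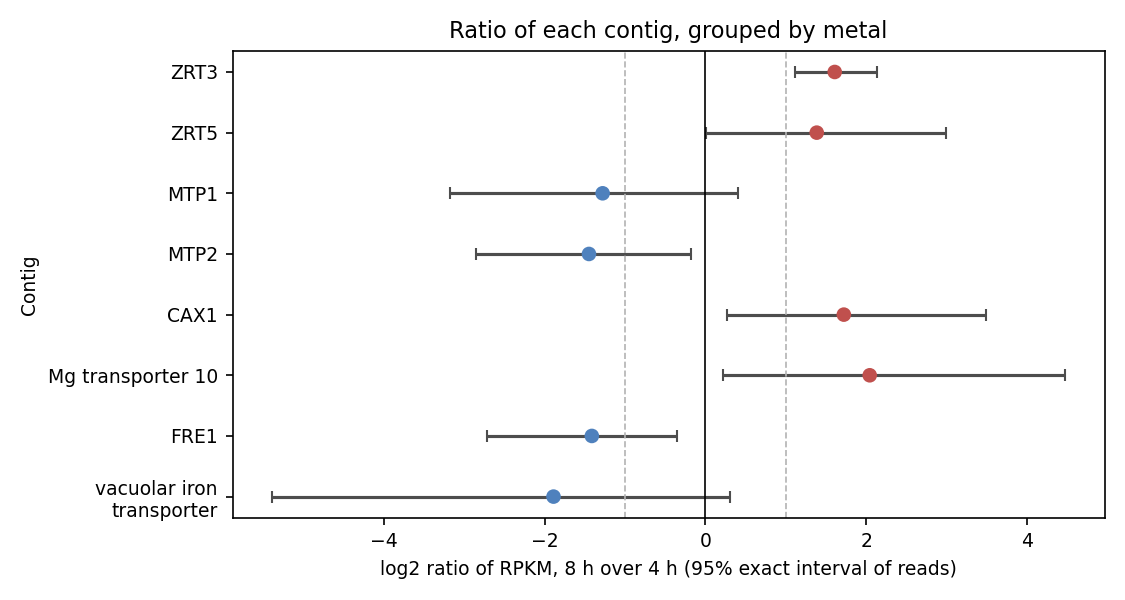
The log2 ratio of RPKM, 8 h over 4 h, for each metal contig. Rows run from zinc at the top through calcium and magnesium to iron at the bottom. MTP2, whose description names no metal, is placed below MTP1 as a member of the same family. Points are ratios of the authors' means, red where higher and blue where lower at 8 h. Bars are 95% exact intervals of the reads, and dashed lines mark a 2-fold difference. The bars of MTP1 and the vacuolar iron transporter cross 0, and the bar of ZRT5 begins just above it.

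The interval lay above a ratio of 1 for 4 of the 8 metal contigs, ZRT3, ZRT5, CAX1 and the magnesium transporter, and for 28.6% of all listed contigs. It lay below 1 for 2 of the 8, MTP2 and FRE1, and for 23.5% of all listed contigs. These counts use the contrast that made the lists and are given as a description. The median log2 ratio was 1.67 over the 4 higher metal contigs and 1.46 over all 134 higher contigs. Over the 4 lower metal contigs it was -1.43, and over all 100 lower contigs -1.42. In the authors' deposited table, the step-up FDR was 1.08e-11 for ZRT3 and 0.0496 for FRE1. For the other 6 it lay between 0.103 for MTP2 and 0.191 for the vacuolar iron transporter in the authors' deposited table. An FDR under 0.05 was thus held by 25% of the metal contigs and 32.5% of all listed contigs, per the authors' deposited table. For the 8 metal contigs, the p-values behind the FDRs match a test that takes RPKM as counts. They do not use the number of reads, and with 1 library per time point they have no replicate check.

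The order of levels differed between the libraries, which the choice of contigs by their fold in this contrast favours. At 8 h, ZRT3 was followed by ZRT5, CAX1, the magnesium transporter, FRE1, MTP1, MTP2 and the vacuolar iron transporter. ZRT3 was apart from ZRT5, whose Poisson interval was 11.6 to 30.1 RPKM, and every other pair of neighbours had intervals that overlapped. At 4 h, ZRT3 was followed by FRE1, MTP1, MTP2, the vacuolar iron transporter, ZRT5, CAX1 and the magnesium transporter. At 4 h all neighbours overlapped, ZRT3 and FRE1 included, whose interval was 19.4 to 46.0 RPKM. Leaving ZRT3 aside, the 3 higher contigs summed to 47.6 RPKM at 8 h and 15.2 RPKM at 4 h. The 4 lower contigs summed to 34.2 RPKM at 8 h and 92.5 RPKM at 4 h. These sums are grouped by list, so their directions were set by the choice of contigs.

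The metal contigs were somewhat longer than the lists as a whole, with a median of 1378 bases against 1095. They ran from 678 bases for MTP1 to 1984 bases for CAX1. Reads at 8 h and 4 h were whole, within 0.01 reads, for 6 of the 8 (75%), all but FRE1 and the vacuolar iron transporter, and for 70.1% of all listed contigs. ZRT3, ZRT5, MTP1 and CAX1 came from loci with a single assembled transcript, as did 56.8% of all listed contigs. No other listed contig shared a locus or a best hit with any of the 8, so none is listed again under another name. The loci of the other 4 contigs hold further transcripts, which are not on the lists and were not checked. Besides the magnesium transporter, FRE1 is transcript 3 of 3 (assembly confidence 0.75) and MTP2 is 1 of 2 (0.667). The vacuolar iron transporter is 1 of 4 (0.654). The values of these contigs thus describe 1 assembled transcript each and not all transcripts of the locus. The lists were limited to folds of at least 2.00 and p-values up to 0.04995 in the authors' deposited table. The metal contig nearest to the fold limit was MTP1, at 2.42, and the vacuolar iron transporter was nearest to the p limit, at 0.0322 in the authors' deposited table. Contigs just outside these limits were not analysed here.

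**Figure D3:**
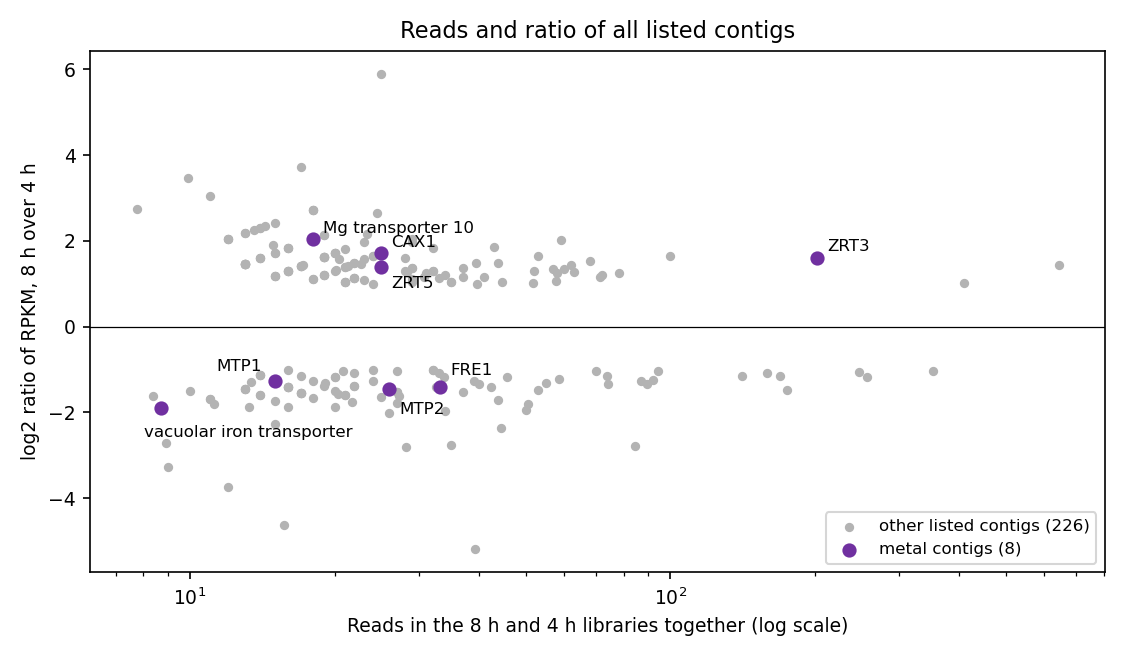
Reads in both libraries together (log scale) against the log2 ratio of RPKM, 8 h over 4 h, for each of the 234 listed contigs. The 8 metal contigs are purple and labelled, and the other 226 are grey. ZRT3 lies far to the right with 202 reads, and the other 7 lie between 8.70 and 33.2 reads, where most listed contigs lie.

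Few other listed contigs carried a metal in their names. A keyword list of metals, metal-binding proteins and haem matched 3 further contigs, 2 higher and 1 lower, and none is known as a metal transporter. A metal-dependent phosphohydrolase stood at 20.3 RPKM at 8 h and 8.96 RPKM at 4 h, a ratio of 2.27 (0.672 to 9.77). A contig with the symbol AGO2 and a description that joins a stabilizer of the iron transporter SufD to a polynucleotidyl transferase had 20.9 RPKM at 8 h and 3.10 RPKM at 4 h, on 6.90 reads against 0.842. A zinc finger protein of the CCCH type, which binds RNA, stood at 12.2 RPKM at 8 h and 24.7 RPKM at 4 h. All 3 had intervals that included equal levels.

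A keyword list of transport words matched 5 contigs outside the metal contigs, 4 higher and 1 lower. Of all listed contigs, 57.3% were higher and 42.7% lower. AGO2 was matched again by its wording alone, and the other matches are named as transporters of other solutes. The nitrate transporter NAR5 had a ratio of 2.24 (1.31 to 4.04), the nucleotide and sugar transporter CGL51 of 2.57 (1.18 to 6.18) and a peptide transporter of 2.98 (1.06 to 13.6). The urea transporter DUR3A was 2.51-fold lower (1.26 to 5.32). The median log2 ratio of the 4 higher ones, AGO2 included at 2.76, was 1.47, against 1.67 for the 4 higher metal contigs.

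Cation exchangers and diffusion facilitators run on proton gradients, so the listed proton pumps were looked at as well, a choice made after their values were seen. A subunit E contig of the V0 complex, the membrane part of the vacuolar proton pump, stood at 31.6 RPKM at 8 h and 12.8 RPKM at 4 h, a ratio of 2.47 (0.750 to 10.5). PMH1, a P-type proton pump, stood at 3.18 RPKM at 8 h and 21.4 RPKM at 4 h, 6.73-fold lower (2.79 to 24.01). The pump contigs thus lay on opposite lists, and the interval of the V0 contig included equal levels. Any link between the pumps and the CAX1 or MTP contigs was not tested.

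The annotated contigs most like ZRT3 in ratio, among those with at least 10 reads in the higher library, were CLPR2, a subunit of the Clp protease, FAP276, a flagellar associated protein, and EIF2Ba, a translation initiation factor subunit. ZRT3 had a log2 ratio of 1.61, and all 3 had one of 1.60, within 0.0122 of it. They had 22, 11 and 11 reads at 8 h and 6, 3 and 3 reads at 4 h. COPE1, a coatomer subunit, followed at the same distance. Likeness over 2 libraries is a likeness of a single ratio, and on so few reads many contigs take the same value.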

How the data were processed

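Messenger RNA libraries were made from total RNA with a stranded TruSeq kit, per the labels' protocols, and Partek is named, without a version, per the submitters' processing notes. No aligner, assembler or reference for the reads is given in the sources used here. For the best hits, the E value heading of the higher list names C. reinhardtii, and that of the lower list names no species. Hits of both lists were taken to be in that alga, and E values were compared across the lists on that reading. The authors deposited lists of contigs higher or lower at 8 h, with RPKM means, a ratio, a p-value with its step-up FDR, and an estimated count, the raw total of reads per contig, which is not always whole. For all 8 metal contigs, a Wald test that takes RPKM as Poisson counts gave the authors' p within 1%, so that p does not use the number of reads. Reads were recovered here from the RPKM means, the contig length and the deposited raw maximum per library.

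Ratios are quotients of the deposited RPKM means without a pseudocount. Their 95% intervals come from the exact Clopper-Pearson interval of the share of a contig's reads found at 8 h. Reads were rounded to whole numbers, and the interval was turned into a ratio. Level intervals are exact Poisson intervals. The ratio intervals were tried on simulated reads drawn without the fold and p limits of the lists. That simulation does not cover contigs chosen by these limits, as all 8 were. Reads are not independent molecules, so intervals cover counting error only. No test of the conditions was made, with 1 library per time point. All metal contigs were named. From the keyword lists for metals and transport, up to 5 contigs per direction were named, and the 3 contigs nearest to the ratio of the most deeply covered metal contig. The contigs and lists were chosen with earlier results of these data known. Scripts ran on Python 3.11.15 with scipy 1.17.1, pandas 2.3.3, matplotlib 3.10.9 and numpy 2.4.6. Sequences of the contigs were not used here.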

Additional observations from a re-analysis of the deposited data

Results flagged for a closer look

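For 4 metal contigs, the authors' raw total exceeded the sum of 8 h and 4 h reads by over 3 reads, the limit set by a count of 0. This surplus was 13.9 reads for ZRT3 (6.44% of its raw total), 11.7 for FRE1 (26.0%), 6 for MTP2 (18.7%) and 5 for the magnesium transporter (21.7%). It was 2 reads each for CAX1 and MTP1, 1.62 for the vacuolar iron transporter and 0 for ZRT5. A surplus over 3 reads was held by 50% of the metal contigs and by 45.7% of all listed contigs. The raw total was read as covering all libraries of the authors' model. Where the surplus reads come from was not tested. The recovered reads of ZRT3 were whole at 8 h and at 4 h, while its raw total, 215.9, was not.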

How the results depend on the processing

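The count of 4 higher and 4 lower metal contigs became 1 and 1 at an authors' FDR under 0.05 (ZRT3 and FRE1). That FDR does not use the number of reads, and FRE1 was just under the limit, at 0.0496 in the authors' deposited table. The count became 1 and 0 at a 4-fold limit (the magnesium transporter). Alternatives added after the data were seen left 2 lower contigs where reads had to be whole (MTP1 and MTP2) and 2 where the interval had to exclude equal levels (MTP2 and FRE1), with 4 higher in each. The exact wording of the rule, also an added alternative, left 3 and 4. A minimum of 10 reads in the higher library left 4 and 3, an E value under 1e-20 left 3 and 3, and repeated names counted once left 4 and 4. The median log2 ratio of all 8 lies between the lists, at 0.05, and was 1.39 with at least 10 reads and 1.497 with whole reads, because fewer lower contigs were left. The minimum of 10 reads left 1 of 2 higher contigs in the metal keyword list. Pseudocounts of 1 and 0.1 RPKM moved the 8 ratios by at most 0.284 on the log2 scale. A pseudocount added to both levels cannot reverse a direction. No paired analysis was possible because each time point has 1 library, and for the same reason no library could be left out. Depth limits 7 of the 8 contigs, which have at most 33.2 reads over both libraries.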
